A study of Chlamydomonas reinhardtii with 42 samples.

Results

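The transcripts of the strain A31 of Chlamydomonas reinhardtii, a green alga of single cells, were compared between 0 h and 12 h after vitamin B12 and thiamine were added to the cultures. The comparison took all 3 libraries of each time, 6 of the 17 libraries with a column in the deposited count table, and 14422 of its 17114 genes passed a filter on low values. The other 11 libraries were A31 at 48 h (2) and the strain DHC16 at 0, 12 and 48 h (3 each), all of the same vitamin time course. They entered the fit to share 1 estimate of the spread. The labels say that the vitamins deplete ClpP1, the chloroplast-encoded catalytic subunit of the Clp protease, but not in which strain. In published work with this vitamin-repressed system A31 serves as the control strain, a fact that the labels do not give. Cells grew in Tris-acetate medium in light, dim light or the dark, and the labels do not tie these to samples. No 12 h culture without vitamins has a column in the count table. Any effect of the vitamins therefore cannot be told apart from growth, light or the time of sampling. Whether replicates were separate cultures is not stated, and the p-values therefore cover only the variation among the libraries at hand, possibly technical.

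Chlamydomonas cells grow for long stretches and then divide by multiple fission, a rapid run of DNA replication and mitosis in which the single chloroplast divides too and the flagella are first resorbed and later regrown. Daughter cells hatch from the mother wall, which is built of hydroxyproline-rich glycoproteins. With acetate in the medium, cells take up carbon through acetyl-CoA synthetase and the glyoxylate cycle beside photosynthesis. Cobalamin represses METE, the methionine synthase that needs no cobalamin, so METE reports on the vitamin.

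Values are normalized counts, the authors' reads per gene divided by 1 factor per library, and are not divided by transcript length. A gene rose or fell where limma's test of log2(normalized count + 1) gave an adjusted p under 0.05. Log2 changes are of 12 h over 0 h on that scale, with the SE of the fit (n = 3 against 3), and this scale understates changes of low genes. The A31 libraries held 7793322 to 12109846 reads. The 10 most abundant genes took 10.7 to 12.5% of the normalized counts at 0 h and 5.71 to 6.12% at 12 h. Gene symbols come from the authors' rapamycin tables alone, so every gene with a symbol had passed the authors' thresholds in that other treatment, and genes without one are in no list.

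METE (Cre03.g180750) was lower at 12 h. It had 1049.7, 579 and 814 normalized counts at 0 h and 165, 140.2 and 146 at 12 h, and the groups did not overlap. METE fell by 5.42-fold in the group means (log2 change -2.39 ± 0.30, adjusted p = 5.9e-06), and its 12 h change did not pass the test of a difference from that in DHC16 (difference -0.76, adjusted p = 0.48). The gene clpP1 was not analysed here.

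Over all genes, 4537 rose (31.5% of those tested) and 4097 fell (28.4%), together 8634 (59.9%). Rises were larger than falls at the extremes. A log2 change past 3 was found at 759 of the genes that rose and 155 of those that fell, and one past 5 at 311 and 8. At 95 genes each 0 h library held at most 3 reads while every 12 h library had at least 100 normalized counts, and 1 gene had the reverse pattern. Within a time the rank correlations of libraries over genes were 0.979 to 0.984 at 0 h and 0.967 to 0.977 at 12 h, against 0.720 to 0.769 between times. The balance of rises and falls depended on the scaling. Rises were 52.5% of the calls with the deposited factors, 69.6% with per-million scaling and 44.4% with quantile scaling, and the median log2 change of all genes was 0.02, 0.35 and -0.15. The list medians given below are with the deposited factors, and not every list has its median printed. Per-million values are added for some lists and genes whose call or direction turned on them. Their absence does not mean that a result held. Only genes with a symbol could enter a list, and of these 39.8% rose and 31.3% fell.

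**Figure D1:**
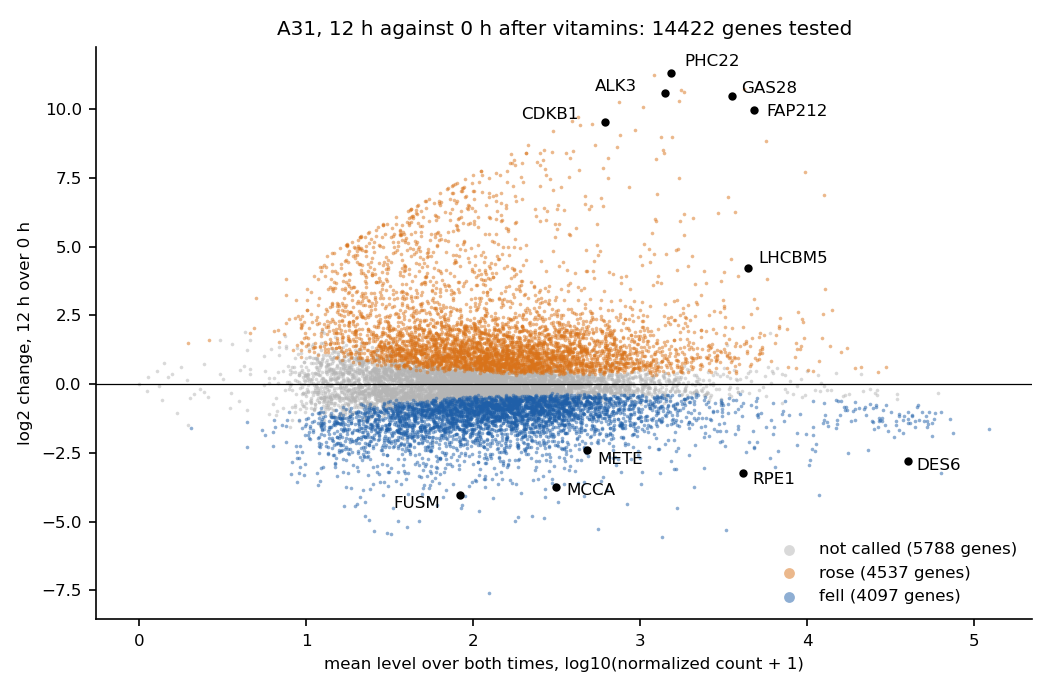
Each point is 1 of the 14422 genes tested in A31, with its mean level over both times on the x axis, as log10(normalized count + 1), and its log2 change from 0 h to 12 h on the y axis. Orange genes rose (4537), blue genes fell (4097) and grey genes were not called (5788), and the rises reach further from 0 than the falls.

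DNA replication genes rose together. All 30 measured members of the list rose, against 31.5% of all genes, with a median log2 change of 3.08 and a range of 1.10 to 7.97. The groups did not overlap at any of the 30, as at 70.1% of all genes. The MCM proteins form the replicative helicase, and MCM2 had 1.12, 5.34 and 5.62 normalized counts at 0 h and 610.1, 623 and 544 at 12 h (log2 change 7.05 ± 0.73, adjusted p = 8.2e-07). The other subunits MCM3 to MCM7 rose by log2 1.49 (MCM5) to 5.47 (MCM6). Of the origin recognition complex, which marks where replication starts, ORC1, ORC2, ORC4, ORC5 and ORC6 rose by log2 1.15 (ORC2) to 5.42 (ORC4). CDC6 and CDT1, which load the helicase onto origins, rose by 4.88 and 3.47. TOP2, the topoisomerase that untangles DNA and the list's largest rise, had 0, 2.29 and 1.41 normalized counts at 0 h and 461, 572 and 474 at 12 h. Its 0 h values lay at or under the floor of 3 reads per library.

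Enzymes that make and join the new strands moved the same way. RIR1, of the ribonucleotide reductase that supplies deoxynucleotides, had 101, 95.4 and 121 normalized counts at 0 h and 3008, 3252 and 3227 at 12 h (log2 change 4.90 ± 0.41, adjusted p = 7.2e-08). PCN1, the sliding clamp PCNA, had 348, 331 and 375 normalized counts at 0 h and 2935, 2435 and 3564 at 12 h (log2 change 3.06 ± 0.31, adjusted p = 5.8e-07). Both had 12 h libraries far above all 0 h libraries, as the plot of cell division genes shows. POLA1 and POLA2, of the polymerase that starts strands, rose by log2 3.61 and 6.59, and POLD1 and POLD2, of the polymerase that extends them, by 3.02 and 1.35. CTF18, of an alternative clamp loader, was at 0 reads in each 0 h library and had 77.1, 60.8 and 99.3 normalized counts at 12 h. The smallest rises were those of the clamp loader subunits RFC1 (log2 1.11) and RFC3 (1.10).

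Regulators of the cell cycle rose at 7 of 7 measured members, against 31.5% of all genes, with a median of 6.39. CDKB1, the plant-type mitotic cyclin-dependent kinase, had 3.36, 0 and 0 normalized counts at 0 h and 1321, 1079 and 1287 at 12 h (adjusted p = 3.8e-10). CYCB1, a B-type cyclin of mitosis, had 43.6, 68.7 and 71.0 normalized counts at 0 h and 3963, 3547 and 4642 at 12 h (log2 change 6.05 ± 0.35, adjusted p = 1.3e-09). WEE1, a kinase that holds back mitotic entry, and CDC20, an activator of the anaphase-promoting complex, rose by log2 6.39 and 6.53, so genes of opposite action in mitosis were both higher. The smallest rises belonged to MAT3, the retinoblastoma protein that in Chlamydomonas ties division to cell size (log2 1.40), and CKS1, a small partner of cyclin-dependent kinases (1.09).

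Genes of mitosis and plastid division rose at 15 of 17 and fell at 1, against 31.5% and 28.4% of all genes, with a median of 3.60. ALK3, an Aurora-like kinase, had 0, 1.53 and 1.41 normalized counts at 0 h and 3099, 2504 and 2801 at 12 h (adjusted p = 1.3e-12). SMC2 and SMC4, the core of condensin, which compacts chromosomes, were at or under 3 reads in every 0 h library and at 435 to 552 and 323 to 362 normalized counts at 12 h. Genes of the plastid division ring were in the same range of change. FTSZ2, one of its tubulin-like filaments, had 0, 3.81 and 0 normalized counts at 0 h and 648, 484 and 634 at 12 h, and MIND1, which places the ring, had 1.12, 2.29 and 2.11 normalized counts at 0 h and 1592, 1255 and 1717 at 12 h. FTSZ1 and MINE1 rose by log2 6.86 and 7.55. TUB2, a beta-tubulin whose reads a near-identical copy can share, rose by 1.39. DRP4A, a dynamin-related GTPase, was the list's fall, and CNK9 was also called lower with quantile and TMM scaling, edgeR and DESeq2 and in the fits without A31 at 48 h. DRP4A had 168, 135 and 181 normalized counts at 0 h and 22.6, 23.4 and 29.9 at 12 h (log2 change -2.62 ± 0.36, adjusted p = 1.3e-05). Of 2 measured histone genes, HTR24, a histone H3, fell (log2 change -3.69 ± 0.66, adjusted p = 0.00016), and HBV1 was not called (log2 0.37). HTR24 had 139.9, 240.3 and 145 normalized counts at 0 h and 10.1, 12.5 and 14.5 at 12 h. Histone genes are many near-identical copies, so its value is uncertain.

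**Figure D2:**
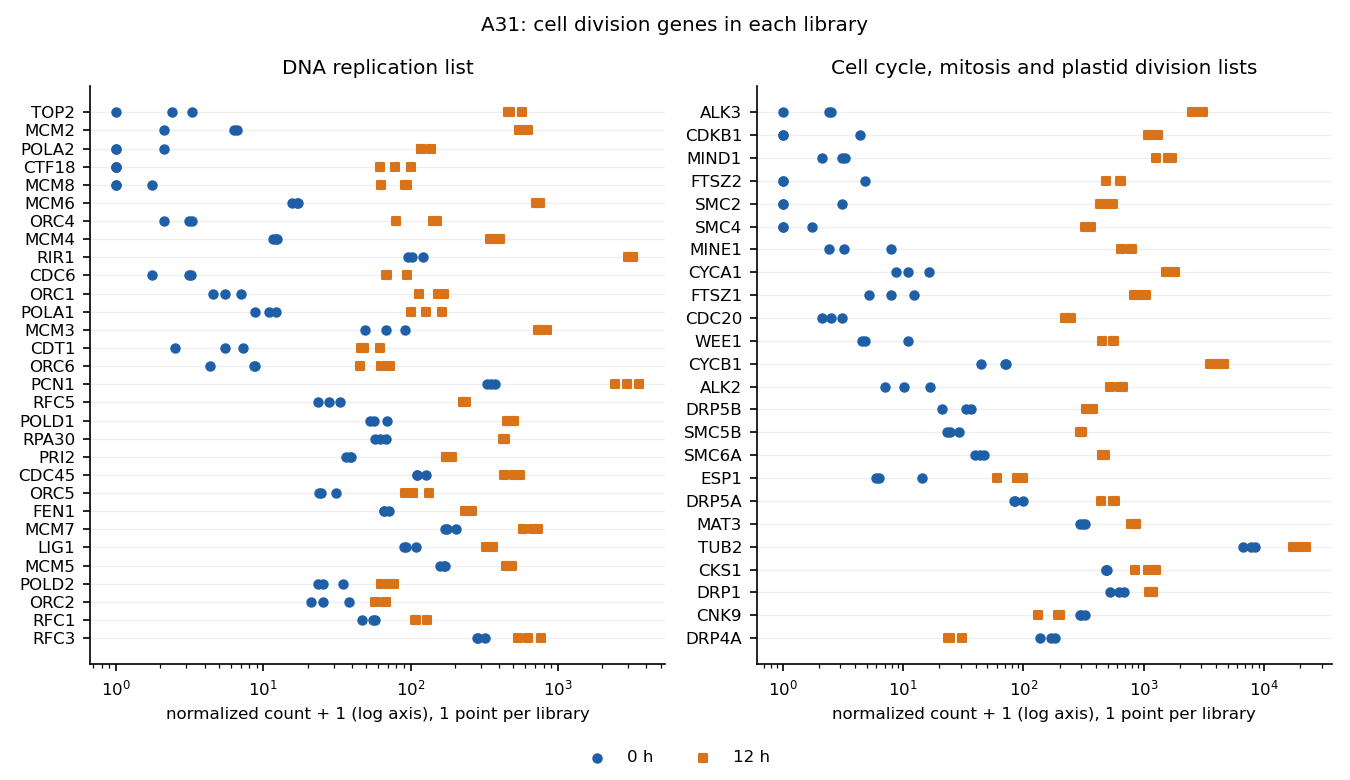
Normalized counts + 1 on a log axis for each gene of the DNA replication list (left) and of the cell cycle, mitosis and plastid division lists (right), with 1 point per library, blue circles for 0 h and orange squares for 12 h. All genes but CNK9 and DRP4A have their 12 h points to the right of their 0 h points.

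Of 57 measured genes of axonemal dyneins, radial spokes, intraflagellar transport and basal bodies, 8 rose and 18 fell. Of all genes 31.5% rose and 28.4% fell, so the share of falls in the list was near that of all genes. The median log2 change was -0.23, or 0.10 under per-million scaling, where 11 rose and 6 fell. All 8 rises were POC centriole genes or BLD10, a protein of the cartwheel that templates centrioles. POC4 had 0, 0 and 2.11 normalized counts at 0 h and 483, 349 and 334 at 12 h, and POC5 was at 0 reads in each 0 h library and at 132, 136 and 142 normalized counts at 12 h. POC1, POC11, POC16 and POC18 rose by log2 1.65 (POC16) to 6.31 (POC18), and POC12 rose by 0.70. The falls were small and lay among radial spoke proteins, which link the central pair to the dyneins, and a few dynein, central pair and transport genes. RSP3, the anchor of the spoke, had 1013, 1069.6 and 1049.7 normalized counts at 0 h and 394, 471 and 421 at 12 h (log2 change -1.29 ± 0.20, adjusted p = 5.9e-05). RSP1, RSP2 and RSP23 fell by log2 1.00 (RSP2) to 1.15 (RSP1). IFT20 and IFT57, of intraflagellar transport, fell by 0.89 and 0.63, but neither fall was called with per-million scaling, and the 3 rises added there were IFT140, of the same transport, and the outer arm dynein genes ODA2 and ODA6. The dynein heavy chain DHC1b, a motor of that transport, stood at 1574, 1632 and 2342 at 0 h and 1724, 2890 and 1463 at 12 h (log2 0.09) and was not called.

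Flagella associated proteins, 116 genes found in isolated flagella, fell at 65 and rose at 12, against 28.4% and 31.5% of all genes, with a median of -0.70. With per-million scaling 32 fell and 13 rose (median -0.37), and with quantile scaling 75 fell and 10 rose. FAP138 fell the most, with 392, 458 and 661 normalized counts at 0 h and 58.7, 74.0 and 77.1 at 12 h (log2 change -2.81 ± 0.50, adjusted p = 0.00016). FAP139 and FAP265 fell as well (log2 -2.31 and -2.13). FAP212 stood at the other end, with 13.4, 5.34 and 8.44 normalized counts at 0 h and 12021, 7550.1 and 9375 at 12 h (log2 change 9.96 ± 0.31, adjusted p = 3.3e-13). FAP281 and FAP211 rose by log2 6.95 and 4.23, and the remaining 9 rises were of 0.46 to 1.68. The libraries did not weigh equally on the count of falls. Library 13 had the highest 12 h value at 50 of the 65, and the count was 35 without 12 h library 10, 40 without 0 h library 7 and 61 without library 13. In the axonemal list the falls went from 18 to 7 without library 10 and 8 without library 7.

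Most cell wall genes rose. Of 14 in the list 12 rose and none fell, against 31.5% and 28.4% of all genes, with a median of 4.11. Pherophorins are hydroxyproline-rich proteins of the extracellular matrix. PHC22 had 0, 0 and 0.703 normalized counts at 0 h and 3264, 3052 and 2828 at 12 h (adjusted p = 4.7e-11) and PHC19 0, 0.763 and 0 normalized counts at 0 h and 1809, 1243 and 1415 at 12 h (adjusted p = 7e-12). PHC4 had 4.48, 6.87 and 4.22 normalized counts at 0 h and 3734, 2831 and 2715 at 12 h (log2 change 8.98 ± 0.28, adjusted p = 3.3e-13). All 3 lay near 0 in every 0 h library and far above that in every 12 h library. PHC2, already present at 0 h, had 702, 803 and 701 normalized counts at 0 h and 12193, 7048 and 12789.9 at 12 h (log2 change 3.81 ± 0.33, adjusted p = 1.1e-07). The other pherophorins PHC9, PHC15, PHC24 and PHC25 rose by log2 2.76 (PHC15) to 5.95 (PHC25). Pherophorin genes are a family of close relatives, and how reads shared between them were counted is not given in the sources used here. ISG-C2, another hydroxyproline-rich wall protein, was outside the list by its spelling and had 6.71, 5.34 and 7.03 normalized counts at 0 h and 3225, 2272 and 2667 at 12 h (log2 change 8.52 ± 0.24, adjusted p = 1.6e-13).

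GAS28 and GAS31, hydroxyproline-rich glycoproteins first described in gametes, also rose. GAS28 had 2.24, 6.87 and 3.52 normalized counts at 0 h and 8135, 6103 and 6880.4 at 12 h (log2 change 10.49 ± 0.30, adjusted p = 1.6e-13), and GAS31 85.0, 129.7 and 90.7 normalized counts at 0 h and 3617, 2248 and 2376 at 12 h (log2 change 4.73 ± 0.30, adjusted p = 3.6e-09). They stand as well in the list of gamete and zygote markers, of which 4 of 5 genes were tested. Of the others MTA3, a gene of the mating type locus, fell (log2 change -1.21 ± 0.17, adjusted p = 1.4e-05), and SAG1, the plus agglutinin by which gametes adhere, had 11.2, 21.4 and 15.5 normalized counts at 0 h and 19.3, 14.8 and 25.1 at 12 h and was not called. HAP2, the gamete fusogen, was under the filter with 2.24, 1.53 and 2.11 at 0 h and 16.8, 10.9 and 14.5 at 12 h. The summed level of the 5 markers was 1210 to 1451 at 0 h and 8823 to 12312 at 12 h, most of it GAS28 and GAS31 at 12 h. FUSM, annotated as gamete-specific, had the largest fall among genes with a symbol and a mean of at least 100 in the higher group, with 209, 139 and 120.2 normalized counts at 0 h and 11.7, 8.57 and 5.78 at 12 h (log2 change -4.02 ± 0.47, adjusted p = 3.2e-06). The part of gametes in any result was not tested. In bulk samples more cells of a state and more RNA per cell cannot be told apart.

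**Figure D3:**
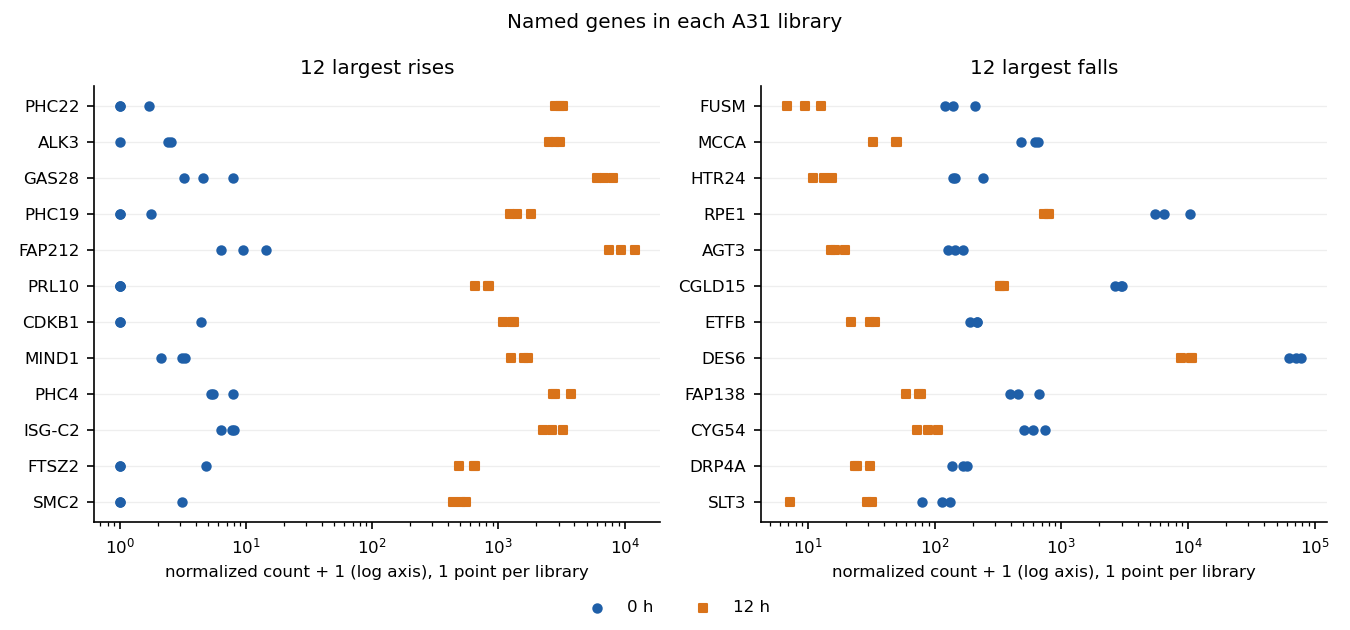
The 12 largest rises (left) and 12 largest falls (right) among genes with a symbol, with normalized count + 1 on a log axis and 1 point per library, blue circles for 0 h and orange squares for 12 h. The rises start near 0 reads and the falls start from 107 (SLT3) to 70598 (DES6) normalized counts on average, and the groups do not overlap because the rule that chose the genes required it.

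Light-harvesting genes were higher at 12 h. Of 12 in the list 9 rose and 1 fell, against 31.5% and 28.4% of all genes, with a median of 1.48. The 9 were all genes of antenna proteins that bind chlorophyll. LHCBM5, of the major antenna of photosystem II, had 307, 705 and 407 normalized counts at 0 h and 6799, 8227 and 10051 at 12 h (log2 change 4.21 ± 0.58, adjusted p = 1.4e-05). LHCBM4 and LHCBM8 rose by log2 3.03 and 2.70, LHCBM1, LHCBM3 and LHCBM6 by 1.33 to 1.48, and the minor antenna genes LHCB4 and LHCB5 by 1.11 and 2.07. LHCA6, of the photosystem I antenna, rose by 1.95. The LHCBM genes are close paralogs, so reads may have been split among them. Library 4 had the highest 0 h value at 9 of the 9, for example 3032 for LHCB5 against 1042 and 1154, yet it stayed below every 12 h library. NAB1, which holds back translation of LHCBM messages, went the other way, with 4034, 3689 and 3143 normalized counts at 0 h and 1518, 970.4 and 1323 at 12 h (log2 change -1.53 ± 0.24, adjusted p = 5.4e-05). The one-helix protein OHP1 and HLIP, relatives of the antenna proteins known from light stress, were not called (log2 -0.29 and -0.21), but both fell with quantile scaling.

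Genes of the photosystems and electron transport were mixed, with 6 of 13 rising and 2 falling, against 31.5% and 28.4% of all genes. With per-million scaling 9 rose and none fell, and with TMM scaling or edgeR 5 rose. PSBY1, PSB28 and PGR5, of photosystem II, its assembly and cyclic electron flow, rose by log2 0.80 (PGR5) to 1.29 (PSBY1). PGR5 was not called with TMM scaling (adjusted p = 0.0506). The abundant oxygen-evolving subunits PSBP1 and PSBQ were not called (log2 0.34 and 0.33), and PSBO fell by 0.62, a call that was lost with per-million and quantile scaling and without 0 h library 1 or 4 or 12 h library 10 or 13. FDX5, a ferredoxin known from cells without oxygen, was at 0 reads in each 0 h library and at 360, 91.9 and 225 normalized counts at 12 h, at least 87.3-fold higher than a floor of 3 reads per library (adjusted p = 0.0016). TEF19, described as induced by low carbon dioxide, fell by 0.64, and its call was lost with per-million scaling (adjusted p = 0.25) and without any of the same 4 libraries.

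In the Calvin cycle list 3 of 7 genes rose and 2 fell, against 31.5% and 28.4% of all genes. The median log2 change was -0.24, or 0.09 with per-million scaling, with the same counts. RBCS1, one of the genes of the Rubisco small subunit, had 75.0, 413 and 172 normalized counts at 0 h and 2083, 2000.1 and 2856 at 12 h (log2 change 3.70 ± 0.61, adjusted p = 8.1e-05), while its relative RBCS2A had 25999, 26610.5 and 17762 normalized counts at 0 h and 19198, 17338 and 22286 at 12 h and was not called (log2 -0.24). The small subunit genes are near-identical, and their reads may have been split. PRK1 and PGK1, phosphoribulokinase and phosphoglycerate kinase, rose by log2 2.89 and 2.51. RPE1, ribulose phosphate epimerase of the same cycle, was among the largest falls, with 10387, 5478 and 6424 normalized counts at 0 h and 779, 725 and 801 at 12 h (log2 change -3.22 ± 0.38, adjusted p = 3.5e-06). FBP1, fructose bisphosphatase, fell by 0.71. In chlorophyll and heme synthesis 6 of 8 rose and none fell, against the same shares of all genes, with a median of 0.96. GSA, of the first committed steps to tetrapyrroles, had 62.7, 168 and 102 normalized counts at 0 h and 529, 489 and 453 at 12 h (log2 change 2.25 ± 0.50, adjusted p = 0.0011). PBGD1, CPX1 and CHLM, later in the pathway, rose by log2 1.25 (CHLM) to 1.42 (PBGD1), and DVR1 and CHLD by 0.66 and 0.64. HEMA, the reductase at the entry of the pathway, was not called (log2 -0.27).

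**Figure D4:**
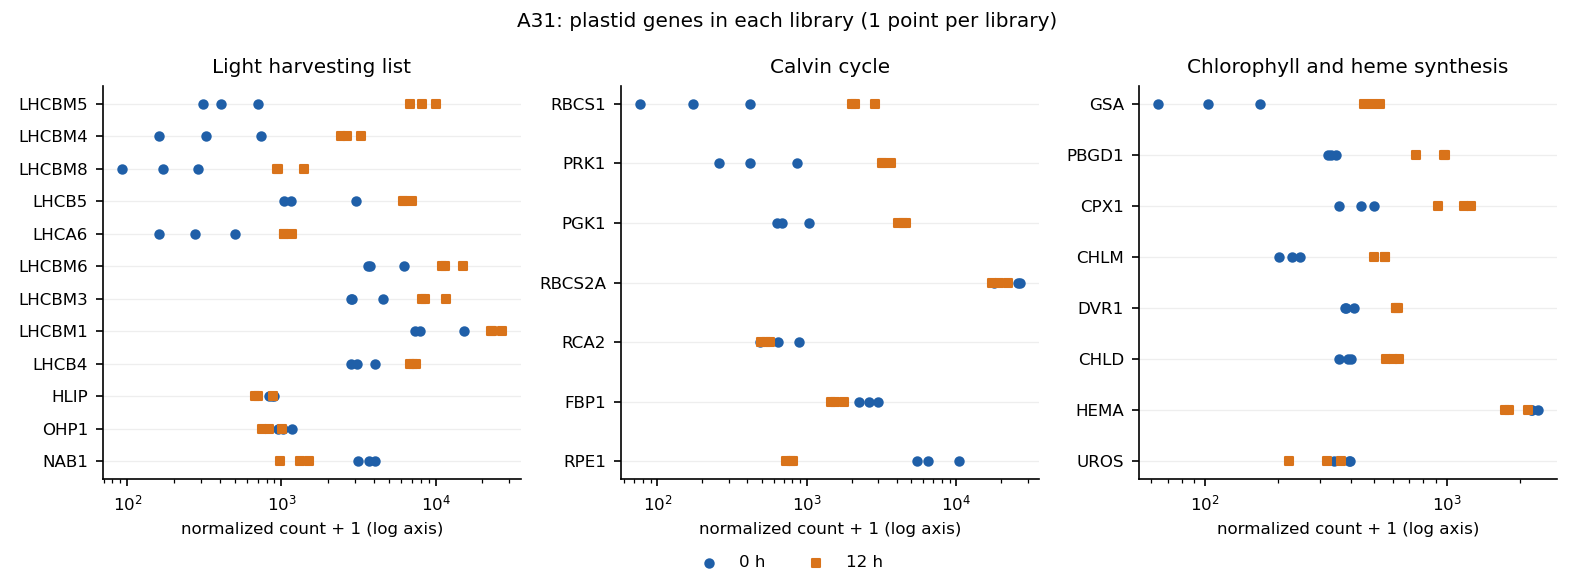
Normalized counts + 1 on a log axis for the light-harvesting, Calvin cycle and chlorophyll and heme synthesis lists, 1 point per library, with blue circles for 0 h and orange squares for 12 h. The antenna genes and RBCS1, PRK1 and PGK1 lie higher at 12 h, NAB1, FBP1 and RPE1 lower, and RBCS2A overlaps.

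Plastid ribosomal proteins encoded in the nucleus had 20 of 29 genes lower and none higher, against 28.4% and 31.5% of all genes. The median was -0.71 (14 fell and the median was -0.37 with per-million scaling). The falls were 16 without 0 h library 1 or 4 and 26 with quantile scaling. PRPL29 fell the most, with 7473, 5695 and 4294 normalized counts at 0 h and 1989.6, 1830.3 and 1682 at 12 h (log2 change -1.63 ± 0.25, adjusted p = 4.3e-05), and PRPL31 and PRPL34 fell by log2 1.59 and 1.56. Library 1 was the highest of the 0 h libraries at 17 of the 20, but at each gene named here every 0 h library lay above every 12 h library. EFG1, elongation factor G of the chloroplast, had 12803, 12508 and 11579.5 normalized counts at 0 h and 5682, 5704 and 5794 at 12 h (log2 change -1.10 ± 0.18, adjusted p = 8.9e-05). EFT2, an elongation factor Ts-like gene, rose from 4.48, 8.39 and 12.0 normalized counts to 75.4, 103 and 87.7 (log2 change 3.35 ± 0.92, adjusted p = 0.0049). Of the other 5 translation genes none was called. All 3 measured genes of cytosolic ribosomal proteins fell, RPS25 with 75729, 63610.0 and 58813 normalized counts at 0 h and 23697, 23067 and 33649 at 12 h (log2 change -1.32 ± 0.30, adjusted p = 0.0013), RPL38 by log2 1.18 and RPL37a by 1.09. None of these 3 was called with quantile scaling (log2 -0.12 to -0.22).

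Of 8 chloroplast chaperone genes 2 rose and 3 fell, close to the shares of all genes (31.5% and 28.4%). The falls were 1 with per-million scaling and without 0 h library 1 or 7 or 12 h library 13 or 16, and 5 with quantile scaling. CPN10, annotated as chaperonin 10 with no compartment, and HSP70B, the chloroplast Hsp70, rose by log2 2.70 ± 0.67 and 2.20. VIPP1, which maintains thylakoid membranes, had 2890.5, 1463 and 2048 normalized counts at 0 h and 866, 572 and 805 at 12 h (log2 change -1.48 ± 0.29, adjusted p = 0.00036), and the Hsp70 helpers CGE1a and CDJ2 fell by 0.62 and 0.81, both not called with per-million scaling. The small heat shock genes HSP22E and HSP22F and the unfoldase CLPB3 were not called (log2 -0.47, -0.08 and -0.30). None of 6 chloroplast protease genes passed the test (2 fell with quantile scaling and 1 rose with per-million scaling), among them FTSH1, FTSH2 and DEG1C (log2 0.04, -0.29 and -0.31). In the list of cytosolic, endoplasmic reticulum and mitochondrial chaperones 5 of 9 genes rose and 1 fell, against the same shares of all genes. HSP70C, the mitochondrial Hsp70, had 29.1, 67.9 and 65.4 normalized counts at 0 h and 892, 1012 and 772 at 12 h (log2 change 4.10 ± 0.89, adjusted p = 0.00086), and PDI2, a disulfide isomerase of the endoplasmic reticulum, rose by 1.28. DNJ34, annotated as a DnaJ-like protein with no compartment, fell (log2 change -1.35 ± 0.17, adjusted p = 7.2e-06). Of 3 autophagy genes 2 fell, APG3, a conjugating enzyme, from 647, 495 and 505 normalized counts to 143, 122 and 125 (log2 change -2.06 ± 0.25, adjusted p = 3.7e-06), and APG8, the protein it attaches to membranes, by 1.14. APG10 was not called (log2 -0.28).

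Of 11 genes of acetate use and the glyoxylate and TCA cycles 7 rose and none fell, against 31.5% and 28.4% of all genes. The median was 0.64, and 1 fell with quantile scaling. PDC3 and PDC1, of the pyruvate dehydrogenase complex, rose by log2 2.98 ± 0.42 and 2.01, and PAT2, a phosphate acetyltransferase, by 1.35. ICL1, isocitrate lyase of the glyoxylate cycle, had 31268, 18332 and 21238 normalized counts at 0 h and 32316, 37965 and 37621 at 12 h (log2 change 0.64 ± 0.23, adjusted p = 0.022). Its 0 h library 1 lay just under the lowest 12 h library, and the call was lost without 0 h library 4 or 7 or 12 h library 13 or 16 (adjusted p = 0.060 to 0.11). ACS3, acetyl-CoA synthetase, had 16729.8, 16329 and 16429 normalized counts at 0 h and 25164, 27999 and 23872 at 12 h (log2 change 0.64 ± 0.18, adjusted p = 0.0054), and MAS1, malate synthase, did not pass the test (log2 0.03). With quantile scaling the changes of ACS3 and ICL1 were larger, at log2 1.71 and 1.86. ACS3, ICL1 and RPS25 were the 3 genes with a symbol that had the most normalized counts at 12 h, whereas DES6, RPS25 and RPL38 led at 0 h.

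Of 8 starch genes 2 rose and 4 fell, against 31.5% and 28.4% of all genes. The median log2 change was -0.32, or 0.01 with per-million scaling, where 3 rose. The falls were 2 with per-million scaling and without 0 h library 1 or 12 h library 10 or 16. PHOA and PHOB, starch phosphorylases, rose, PHOA with 326, 709 and 472 normalized counts at 0 h and 3473, 4002 and 4005 at 12 h (log2 change 3.0 ± 0.44, adjusted p = 2.8e-05) and PHOB by log2 1.88. SSS2, a soluble starch synthase, had 7406, 7335 and 7084 normalized counts at 0 h and 1180.0, 1467 and 1316 at 12 h (log2 change -2.47 ± 0.33, adjusted p = 1.1e-05), and the beta-amylase AMYB2 fell by 1.59. SBE3, a branching enzyme, and PWD1, a starch dikinase, fell by 0.65 and 0.39, neither called with per-million scaling. Of 11 genes of the carbon concentrating mechanism 3 rose and 5 fell, also against 31.5% and 28.4% of all genes. The median log2 change was -0.10, or 0.24 with per-million scaling, with the same counts. The low-CO2-inducible genes went both ways, CCP2 and LCI19 up (log2 1.48 and 1.34) and LCI30, LCI24 and LCI2 down. LCI30 had 16738, 16494 and 17818 normalized counts at 0 h and 5151, 3935 and 5163 at 12 h (log2 change -1.85 ± 0.28, adjusted p = 3.5e-05).

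Respiratory genes rose at 6 of 9 and fell at 2, against 31.5% and 28.4% of all genes. The rises were 4 under quantile scaling or edgeR and without 0 h library 4 or 12 h library 16. MITC13, a mitochondrial carrier, rose from 11.2, 6.87 and 7.03 normalized counts to 307, 262 and 311 (log2 change 5.0 ± 0.34, adjusted p = 7.8e-09), and COX17, a copper chaperone of cytochrome oxidase, by log2 1.41. Of the alternative NADH dehydrogenases, NDA7 and NDA2 rose (log2 2.28 and 0.40) and NDA3 and NDA1 fell (-1.02 and -0.54). NDA2 was not called with quantile scaling (adjusted p = 0.082), nor NDA1 with per-million scaling (adjusted p = 0.38). Antioxidant and redox genes rose at 10 of 15 and fell at 2, against the same shares of all genes. THB1, a truncated hemoglobin, had 10.1, 13.7 and 9.84 normalized counts at 0 h and 274, 135 and 306 at 12 h (log2 change 4.22 ± 0.63, adjusted p = 3.3e-05). APX1, ascorbate peroxidase, and FSD1, the iron superoxide dismutase, rose by 2.57 and 1.61. NTRC1, an NADPH-dependent thioredoxin reductase, fell (log2 change -0.85 ± 0.14, adjusted p = 6.1e-05). The other fall, NTR2 (log2 -0.64), was not called with per-million scaling (adjusted p = 0.22).

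For sulfur use 5 of 8 genes rose and 2 fell, against 31.5% and 28.4% of all genes. ARS5, an arylsulfatase-like gene, had 14.5, 24.4 and 20.4 normalized counts at 0 h and 536, 635 and 566 at 12 h (log2 change 4.83 ± 0.41, adjusted p = 9.1e-08), and SIR1, sulfite reductase, rose by log2 1.87. ATS1, the ATP sulfurylase that activates sulfate, fell by 1.32, and the sulfate co-transporter SLT3 fell with 78.3, 113 and 131 normalized counts at 0 h and 28.5, 6.23 and 30.8 at 12 h (log2 change -2.48 ± 0.41, adjusted p = 7.6e-05). For phosphate 2 of 6 rose and 3 fell, against the same shares of all genes, with 1 rise under quantile scaling and without 0 h library 1. The median was -0.72, or -0.39 with per-million scaling, where the fall of PTA1 (log2 -0.57) was not called (adjusted p = 0.21). PTA3, a proton and phosphate symporter, had 251, 167 and 61.9 normalized counts at 0 h and 1761, 5438 and 4645 at 12 h (log2 change 4.68 ± 0.71, adjusted p = 3.7e-05), with 12 h library 10 well under the other two. PTB2, a sodium and phosphate symporter, fell from 33.6, 64.1 and 40.8 normalized counts to 10.1, 5.45 and 10.6 (log2 change -2.28 ± 0.33, adjusted p = 2.4e-05). For nitrogen 1 of 6 rose and 2 fell, also against 31.5% and 28.4% of all genes. GLN1, glutamine synthetase, rose (log2 change 1.34 ± 0.27, adjusted p = 0.00053), GDH2, glutamate dehydrogenase, fell by 2.21, and AOT4, an amino acid transporter, fell from 53.7, 52.6 and 42.2 normalized counts to 2.51, 6.23 and 1.93 (log2 change -3.58 ± 0.46, adjusted p = 7.5e-06).

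**Figure D5:**
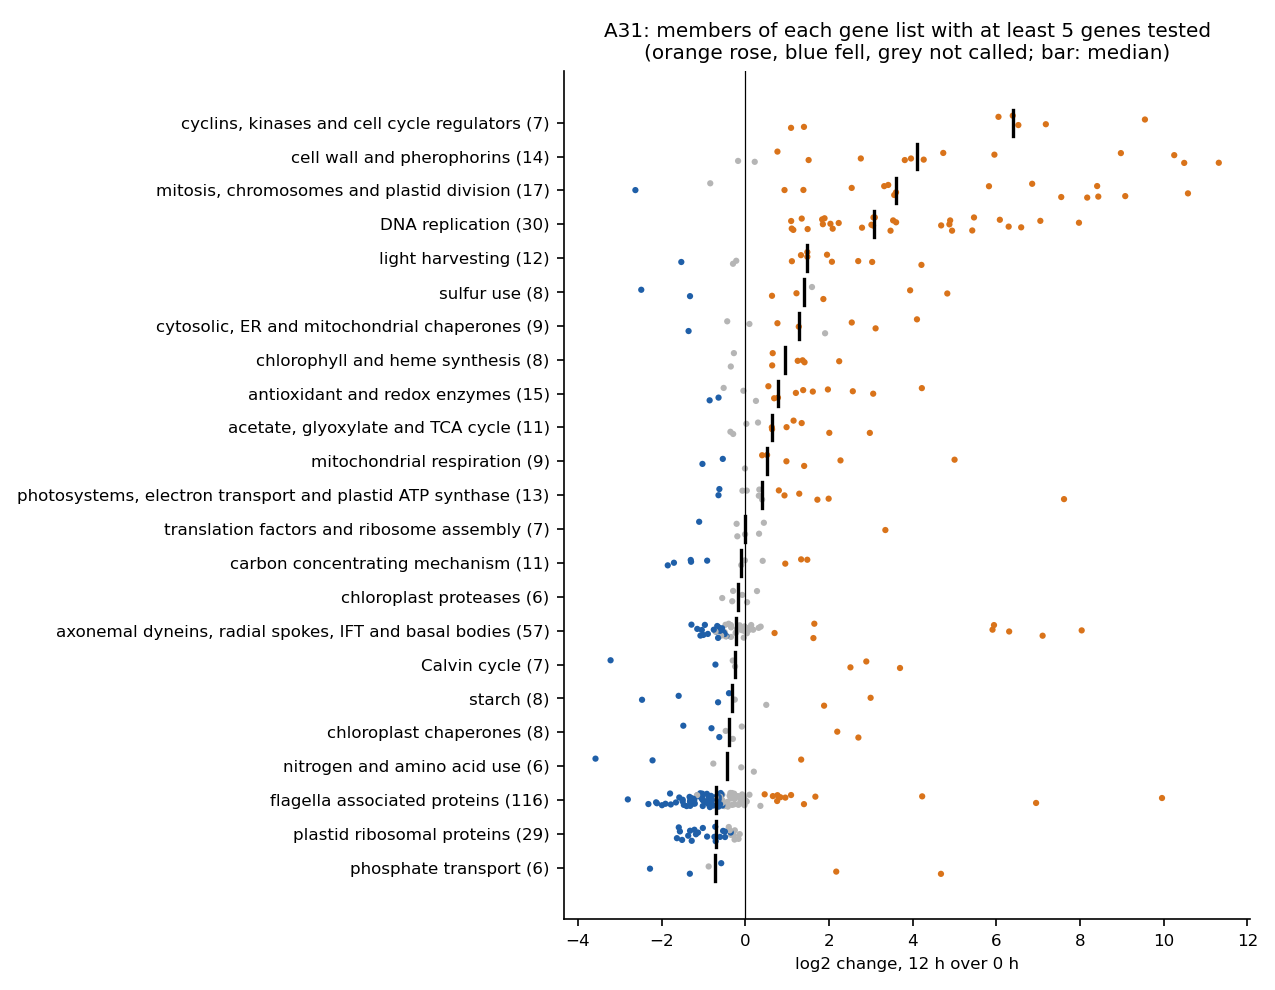
Each point is 1 member of a gene list with at least 5 genes tested in A31, placed by its log2 change from 0 h to 12 h, and black bars are list medians; orange members rose, blue fell and grey were not called. Cell cycle, cell wall, mitosis and replication lists have medians past 3, and the phosphate transport, plastid ribosomal and flagella associated lists lie around -0.7.

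Large falls not yet described include the following. DES6, the plastid omega-6 desaturase that makes polyunsaturated fatty acids, had 78193, 62301 and 71301 normalized counts at 0 h and 10821, 8858 and 10484 at 12 h (log2 change -2.81 ± 0.25, adjusted p = 1.3e-07). It was the gene with a symbol that had the most normalized counts at 0 h. DGD1, of galactolipid synthesis, fell by log2 0.45, not called with per-million scaling, and these 2 were all the measured members of the lipid list. MCCA, of the carboxylase that breaks down leucine, had 655, 625 and 476 normalized counts at 0 h and 31.8, 49.1 and 48.2 at 12 h (log2 change -3.75 ± 0.44, adjusted p = 3.4e-06). ETFB, a flavoprotein that passes electrons from mitochondrial dehydrogenases, fell from 217, 215 and 188 normalized counts to 21.0, 32.7 and 29.9 (log2 change -2.87 ± 0.40, adjusted p = 1.8e-05). AGT3, an alanine-glyoxylate aminotransferase, fell (log2 change -3.11 ± 0.45, adjusted p = 2.6e-05), as did CGLD15, annotated as a lipase-like protein, with 2991, 2641 and 2933 normalized counts at 0 h and 328, 355 and 333 at 12 h (log2 change -3.07 ± 0.21, adjusted p = 5.6e-09). CYG54, a guanylate cyclase, fell by log2 2.79 ± 0.47.

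Among the 23 genes with a symbol that went from at most 3 reads in each 0 h library to at least 100 normalized counts in every 12 h library, 14 stood in the division, centriole, flagellar and wall lists described above. The others, named after their values were seen, include ASP, a microtubule associated protein, and MINE2, a determinant of the chloroplast division site (0, 0.763 and 0 normalized counts at 0 h, 426, 334 and 470 at 12 h). GOX8, a glyoxal or galactose oxidase, and FEA1, an iron-assimilating protein of the periplasm, had 431, 247 and 378 and 127, 378 and 308 at 12 h. PRL10, a predicted extracellular protein, was at 0 reads in each 0 h library and at 846, 648 and 831 at 12 h, at least 299.8-fold above a floor of 3 reads per library. Of genes without a symbol, the largest rises were Cre04.g226600, from 0 in each library to 2585, 2378 and 2320, and Cre17.g708750, from 4.48, 5.34 and 2.11 to 9237, 5827 and 10186. The largest falls were Cre17.g713700, from 311, 212 and 216 to 0, 0 and 0.964, and Cre12.g518800, from 2930, 2506 and 2535 to 70.4, 55.3 and 42.4.

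Lists with few measured members gave little. With the deposited factors neither photoreceptor gene was called, COP3 (log2 -0.10) and COP4 (-0.88, a channelrhodopsin), nor was LCYE, a lycopene cyclase and the only carotenoid gene (-0.79). Of the 336 tested genes with a symbol outside all lists 153 rose and 96 fell, with a median of 0.27. Over the 766 with a symbol, which include every tested list member, 39.8% rose and 31.3% fell, with a median of -0.01.

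At 48 h the 2 A31 libraries (19 and 22) lay between the earlier times for the largest rises. All 12 of the rises in the plot of largest changes had both 48 h libraries above every 0 h library and below every 12 h library. These genes were chosen for their distance between 0 h and 12 h, and of all 4461 rises whose groups do not overlap 26.2% had this pattern. GAS28, for example, had 1800 and 2681 normalized counts at 48 h. Of the 12 largest falls, 10 had both 48 h libraries below every 0 h library, and 7 had both above every 12 h library, against 52% and 47.8% of the 4006 falls whose groups do not overlap. METE stood at 1001 normalized counts in library 19, within its 0 h range, and at 353 in library 22. The 2 libraries differ from each other, as for RPE1 with 6339 in library 19, within its 0 h range, and 1647 in library 22.

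The 12 h change of A31 differed from that of DHC16 at 36 genes (0.25% of those tested), 14 higher and 22 lower in A31. Of the 65 genes that the naming rule picked, FAP212 and ACS3 were among them. FAP212 rose more in A31 (difference 2.47 ± 0.43, adjusted p = 0.033), where DHC16 went from 36.6 ± 10.4 to 6891 ± 2559 normalized counts (SD, n = 3). ACS3 rose less in A31, from 16496 ± 209 to 25678 ± 2111 against 7100.3 ± 126 to 26236 ± 2596 in DHC16 (difference -1.25 ± 0.25, adjusted p = 0.047), and the strains' means lay further apart at 0 h than at 12 h. PHC15, the pherophorin, rose in A31 from 1305 ± 390 to 8684 ± 1700 and in DHC16 from 186 ± 69.7 to 5604 ± 1785 (difference -2.17 ± 0.41, adjusted p = 0.036). NDA1 stood at 415 ± 75.6 and 282 ± 6.71 in A31 and at 244 ± 17.7 and 414 ± 35.7 in DHC16 (difference -1.30 ± 0.21, adjusted p = 0.023). Each of these 4 calls was lost when some single libraries were left out, ACS3 with any of the 12. The fit took the strains' libraries as unpaired. With the library number that the strains share as a replicate block, 11 genes were called, FAP212 among them but not ACS3, PHC15 or NDA1.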

How the data were processed

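RNA of A31 was made into libraries with TruSeq steps as far as the clean-up after ligation, per the labels' protocols. Per the submitters' processing notes, the authors' tools included edgeR 3.0.8, HTSeq 0.5.3p9, TopHat 1.3.1 and CASAVA 1.8.2, named with no roles or settings. For the build, annotation, strand setting and normalization the entry is: not given in the sources used here. The deposited values are a signal of normalized counts, and the authors' factor is a single number per library: 100% of values were whole multiples of 1 read within a tolerance of 0.01, so whole reads could be recovered. The authors' rapamycin tables, whose log2 fold changes were not used, gave 778 gene symbols (766 tested). Of the identifiers 12646 matched the reference table of RefSeq genes (assembly Chlamydomonas_reinhardtii_v5.5), which held 0 further symbols. No sequence and no coordinate was used, and the planned description of promoter motifs was not run.

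Genes whose mean CPM over 17 libraries was 1 or more were tested with limma 3.58.1 in R 4.3.3 (trend on log2(normalized count + 1), 1 mean per strain and time, Benjamini-Hochberg adjustment over all 14422 genes, threshold 0.05). The strain difference is the A31 change minus the DHC16 change in the same fit. edgeR 4.0.16 (quasi-likelihood) and DESeq2 1.42.0 on recovered reads, other scalings, pseudocounts, filters, thresholds and left-out libraries were alternatives. The fit was tested on simulated data.

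Genes were named by rule: METE, the 12 largest rises and 12 largest falls among called genes with a symbol, groups that do not overlap and a mean of at least 100 normalized counts in the higher group, the called member with the largest rise and largest fall of each list, the 3 genes with the most normalized counts at each time, and 2 rises and 2 falls without a symbol. Other list members serve as examples, chosen after their values were seen. The 30 lists, the further list of gamete and zygote markers and the genes were chosen with earlier results of these data known, and 9 genes whose descriptions did not match were taken out of a list by hand. List members are described by counts and medians, with no set test. Setting genes at 0 in every 0 h library to their bound against 3 reads changed no list median. Floors cover counting error only.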

Additional observations from a re-analysis of the deposited data

Results flagged for a closer look

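The test of a difference between the strains in their 12 h change flagged 36 genes, 8 of them with a symbol, given here as the log2 change of A31 minus that of DHC16. FAP212 rose more in A31 (2.47), and the calls of the others were of lower changes in A31, ACS3 (-1.25), the pherophorin PHC15 (-2.17), the glycosyl transferase GTR12 (-2.13), the flagella associated proteins FAP43 (-2.10), FAP163 (-1.88) and FAP289 (-1.63), and NDA1 (-1.30). In A31 FAP43 went from 586 ± 44.7 to 255 ± 76.2 normalized counts, and in DHC16 from 217 ± 18.2 to 398 ± 39.8 (SD, n = 3). GTR12 went from 179 ± 19.3 to 63.3 ± 22.9 in A31 and from 15.4 ± 2.60 to 24.0 ± 4.70 in DHC16. Over the 23 alternative settings the calls of FAP212, FAP163 and NDA1 held in 15, that of GTR12 in 13, those of PHC15 and FAP43 in 12, that of FAP289 in 10 and that of ACS3 in 8. The highest adjusted p was 0.098 for FAP212 and 0.32 for ACS3. No direction turned for these 8 genes.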

How the results depend on the processing

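With the deposited factors 8634 genes were called, 4537 up and 4097 down. With per-million scaling the falls went to 2502, all of them among the main falls. Requiring a log2 change past 1 left 5564 genes, with 2442 falls. edgeR called 8898 and DESeq2 8993, the fit without A31 at 48 h 9307, the A31 0 h and 12 h libraries alone 9524, and leaving out 1 library of A31 gave 7615 to 7947. Of 65 named genes 61 kept their direction and call in all 17 settings, and none turned. The exceptions were TEF19 and ICL1, given above, and RPS25 and RPL38 with quantile scaling, which moved the fold of 19 of the 65 by over 1.5 times, against 0 with per-million scaling. The strain difference was less stable: its 36 genes became 335 with per-million scaling, 183 with DESeq2 and 430 without A31 at 48 h, and 3 (without DHC16 12 h library 16) to 28 with 1 library left out, from 7 to 12 where that library was of A31. A count of 1818 genes had an unadjusted p under 0.05. The cause was not tested.

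No paired analysis was possible for the 12 h change itself, whose groups share no library number. A31 and DHC16 share numbers at each time. At 0 h same-numbered libraries had correlations of deviations of 0.592, 0.512 and 0.3, against -0.599 to 0.24 for different numbers. At 12 h they had 0.38, 0.0914 and 0.000919, against -0.375 to 0.345. As 2 of the 6 were under 0.1, the main fit was left unpaired, although the 0 h libraries may be paired. With the number as a replicate block, an alternative chosen after seeing the data, the strain difference was called at 11 genes, 9 of them among the 36. FAP43, FAP163 and FAP212 were among them, and ACS3, PHC15, GTR12, NDA1 and FAP289 were not. Depth limits the low genes: at most 3 reads per library cannot be told from 0. The planned description of promoter motifs was not run.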

Other observations

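The share of genes called grew with the level. By quartile of mean level 27.5, 30.0, 32.6 and 35.8% of genes rose from the lowest to the highest, and 22.3, 27.2, 31.2 and 33.0% fell.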
